A study of Mus musculus with 8 samples.

Results

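Long noncoding RNAs of the brain were examined in the hippocampus of mice with and without the potassium channel Kv10.1, starting from a list of 9 genes, namely Malat1, Meg3, Miat, Neat1, Snhg11, Rian, Mirg, Rmrp and Rmst. Members were chosen by gene symbol in the platform annotation, and 3 of the 9 had a probe set, Meg3, Snhg11 and Rmrp, among 20985 probe sets in all. The other 6 were not analysed here. The arrays held hippocampal RNA of 8 male mice aged 8 weeks, 4 with Kv10.1 -/- and 4 with Kv10.1 +/+ genotype, 1 mouse per array, with no treatment in either group. Kv10.1, also named Eag1, is encoded by Kcnh1; the sources used here do not give the strain, the deleted part of Kcnh1 or the cells that lose it.

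Long noncoding RNAs act as RNA and encode no protein. Meg3 is a nuclear transcript made from the maternal copy of the imprinted Dlk1-Dio3 region, which also gives rise to a large group of microRNAs, and it is abundant in neurons. Snhg11 is a spliced host transcript of small nucleolar RNAs, short RNAs that guide the chemical modification of ribosomal RNA, and it is found mainly in neurons. Rmrp, although listed with the long noncoding RNAs, is the short RNA of RNase MRP, an enzyme that cuts precursor ribosomal RNA. It is made by RNA polymerase III, and in humans mutations of its gene cause cartilage-hair hypoplasia.

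Kcnh1 read 8.29 to 8.43 on the log2 scale in the 4 knockouts and 9.22 to 9.52 in the 4 wildtype mice, so each array lay on the side its label gives. Array medians ran from 7.5 to 7.55. Interquartile ranges ran from 2.09 to 2.42, widest in wildtype 1. On the first principal component, which held 44.2% of the variance, wildtype 1 (score 32.0) and less so knockout 1 (14.9) stood apart from the other 6 arrays (-15.9 to 0.81). Mouse numbers fell into a lower series (3749 to 3753, wildtype 1 to 3 and knockout 1) and a higher series (3759 to 3763, wildtype 4 and knockout 2 to 4), which largely coincide with genotype. Of 18 hippocampal neuron markers, 17 were measured, with mean levels from 7.26 to 12.88. Levels of different genes depend on their probes and are not compared with each other.

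Meg3 and Snhg11 have annotated start sites in RefSeq, and the sequences around them are printed. The array values do not show which start was used in these mice. For Meg3, 1 of 2 annotated windows is shown, the nearer to the annotated start of the gene. Each line holds 250 bases before and 50 from the start, on the plus strand of GRCm38.p6, with matches to the letters TATAAA or TGACGTCA on either strand in capitals.
Meg3, chr12:109540746-109541045: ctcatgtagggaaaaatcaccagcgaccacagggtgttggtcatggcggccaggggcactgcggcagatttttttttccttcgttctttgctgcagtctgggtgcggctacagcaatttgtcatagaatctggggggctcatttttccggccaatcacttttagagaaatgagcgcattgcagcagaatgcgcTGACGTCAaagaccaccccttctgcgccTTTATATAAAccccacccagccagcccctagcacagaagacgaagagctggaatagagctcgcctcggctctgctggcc
Snhg11, chr2:158375463-158375762: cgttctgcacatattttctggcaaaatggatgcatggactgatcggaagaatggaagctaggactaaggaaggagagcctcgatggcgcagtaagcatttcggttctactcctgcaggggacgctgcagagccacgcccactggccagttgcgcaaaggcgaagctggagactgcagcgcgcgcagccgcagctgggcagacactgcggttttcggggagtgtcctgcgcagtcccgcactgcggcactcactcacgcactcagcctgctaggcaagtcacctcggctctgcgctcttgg
The Meg3 window held TATAAA on both strands in one overlapping stretch that begins 29 bases before the start, and TGACGTCA, the palindrome of a cyclic AMP response element, 57 bases before it. Of 32851 RefSeq promoter windows of the same length, 13.6% held TATAAA and 1.79% held TGACGTCA. Neither run of letters occurred in the Snhg11 window, which had 21 CG pairs, against 13 for Meg3 and a median of 7 over all windows.

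Inside the annotated Meg3 gene lie 2 microRNA genes, Mir1906-1 and Mir770, whose mature products are shown as part of the transcript unit that the Meg3 probe set reports on, with the seed (bases 2 to 8) in capitals.
mmu-miR-1906, chr12:109544588-109544609, plus strand: uGCAGCAGccugaggcagggcu
mmu-miR-770-5p, chr12:109563710-109563731, plus strand: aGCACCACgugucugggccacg
mmu-miR-770-3p, chr12:109563744-109563765, plus strand: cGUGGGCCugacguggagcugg
These sequences are from RefSeq on GRCm38.p6, and the 3 seeds differ. No probe set was named for either microRNA gene, nor for any of the 58 listed microRNA genes of the Meg3, Rian and Mirg transcripts. The Snhg11 gene likewise holds 2 annotated small nucleolar RNA genes without a named probe set.

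Rmrp was set apart by 1 mouse. Its level was 12.24 in wildtype 1, 10.50 in wildtype 2, 9.87 in wildtype 3 and 10.08 in wildtype 4. The knockouts read 9.80, 10.02, 9.87 and 9.99 in mice 1 to 4. The knockouts lay close together near the lower end of the wildtype values, and the groups overlapped. Wildtype 1 lay 2.25 log2 units above the median of the other 7 arrays, or 4.76-fold, and this was the highest such excess of wildtype 1 over all 20985 probe sets. Wildtype 2 was the next highest of the 8.

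Snhg11 was also highest in wildtype 1, over a smaller range. Its level was 10.67 in wildtype 1 and 10.24, 10.09 and 10.03 in wildtype 2 to 4. The knockouts read 10.14, 10.31, 10.02 and 10.12. Wildtype 1 lay 0.55 above the median of the other 7 arrays (1.46-fold), and those 7 lay between 10.02 and 10.31 with the genotypes intermingled.

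Meg3 varied least of the 3. It read 12.93, 12.86, 12.75 and 12.79 in wildtype 1 to 4, and 12.83, 12.89, 12.74 and 12.53 in knockout 1 to 4. The highest value was again that of wildtype 1, by 0.14 over the median of the others, and the lowest was that of knockout 4. Wildtype 1 was above all other arrays for 22.3% of all probe sets and below all others for 25.6%, so a top rank alone is common on that array.

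**Figure D1:**
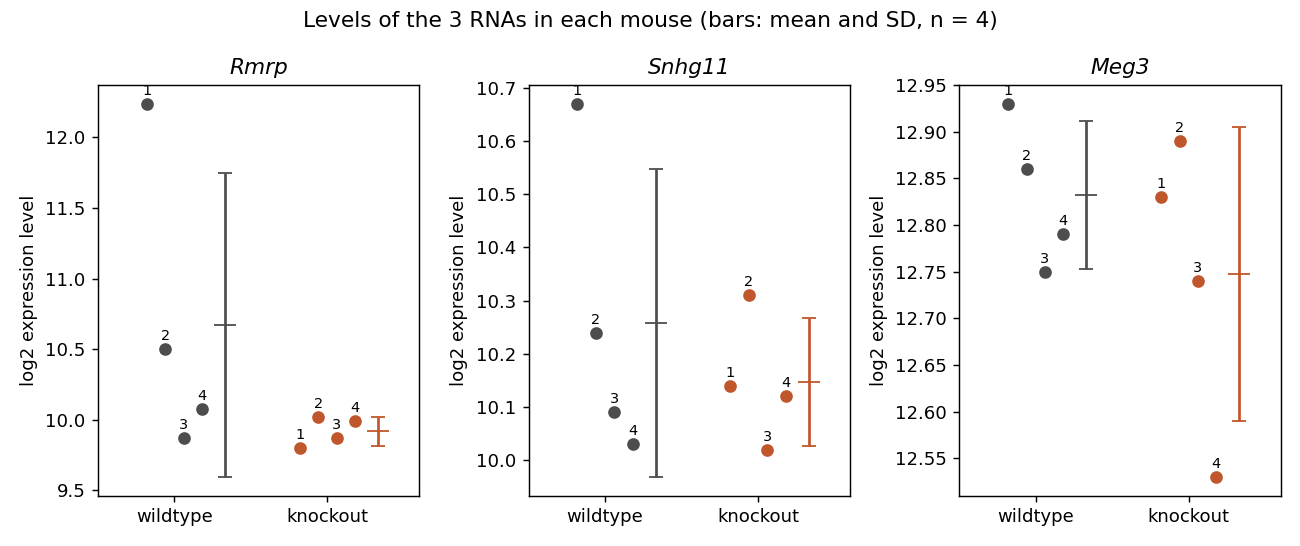
Log2 expression level of Rmrp, Snhg11 and Meg3 in each mouse, with the mouse numbered by replicate; the bar beside each group is its mean and SD (n = 4), and each panel has its own vertical scale. Wildtype 1 is the highest point in all 3 panels, at 12.24 for Rmrp against 9.80 to 10.50 in the other mice.

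The list of genes was drawn up with the spread of Rmrp in these data known, so the spread is given as a description with no test. The pooled SD within genotype was 0.765 for Rmrp, 0.221 for Snhg11 and 0.125 for Meg3, on the log2 scale, where the median over all probe sets was 0.132. Rmrp thus had the 26th highest of 20985 values, Snhg11 lay at percentile 86.0 and Meg3 at percentile 44.8. For Rmrp the SD was 1.08 in wildtype mice and 0.103 in knockouts (n = 4 each). Without wildtype 1 the wildtype SD of Rmrp was 0.321, from the remaining mice, and the pooled SD was 0.218, at percentile 90.5. Snhg11 then had a pooled SD of 0.116, at percentile 48.9, near the middle of all probe sets, while Meg3 stayed at 0.127.

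**Figure D2:**
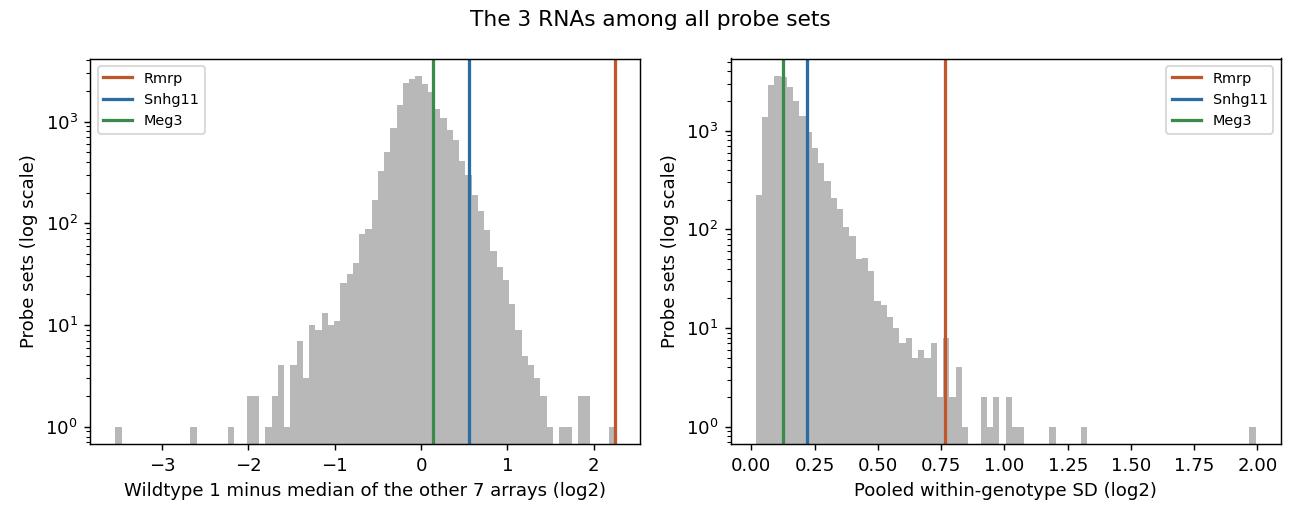
Histograms over all 20985 probe sets of the level in wildtype 1 minus the median of the other 7 arrays (left) and of the pooled SD within genotype (right), both in log2 units, with the number of probe sets on a log scale and coloured lines for the 3 RNAs. Rmrp lies at the upper end on the left (2.25) and in the far tail on the right (0.765), and Meg3 lies among the bulk of both.

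Knockout and wildtype mice were compared by limma over all probe sets, with Benjamini-Hochberg adjustment over the whole table. The difference was chosen for display with its values known, so it too is a description. No member passed an adjusted p of 0.05, where 0.00477% of all probe sets did (Kcnh1 alone), and none had an unadjusted p under 0.05, where 3.16% did, 1.63% higher and 1.53% lower in knockouts. None of the 3 had groups that did not overlap, a pattern seen for 2.16% of all probe sets. In bulk tissue, fewer cells of a type and less RNA per cell cannot be told apart, which applies to every difference given here.

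For Rmrp the knockout mean was 9.92 ± 0.103 and the wildtype mean 10.67 ± 1.08 (SD, n = 4 per genotype). Knockouts were lower by a log2 difference of -0.75 ± 0.414 (SE; limma adjusted p = 0.997), which was not past the threshold. The 95% interval of that difference reached from -1.67 to 0.16, or from 0.314-fold to 1.12-fold. Without wildtype 1 the difference was -0.23. Within the lower series of mouse numbers it was -1.07, in which wildtype 1 lies, and within the higher series -0.12, with 1 mouse of one genotype in each.

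For Snhg11 the knockout mean was 10.15 ± 0.120 and the wildtype mean 10.26 ± 0.289 (SD, n = 4 per genotype). The log2 difference was -0.11 ± 0.132 (SE; limma adjusted p = 0.997). Its 95% interval reached from -0.40 to 0.18, or from 0.756-fold to 1.14-fold. It turned to 0.03 without wildtype 1. The within-series values also had opposite signs, -0.19 in the lower and 0.12 in the higher series.

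Meg3 was bounded most tightly. The knockout mean was 12.75 ± 0.158 and the wildtype mean 12.83 ± 0.0793 (SD, n = 4 per genotype). The log2 difference was -0.085 ± 0.0893 (SE; limma adjusted p = 0.997). Its 95% interval reached from -0.28 to 0.11, or from 0.822-fold to 1.08-fold. It was -0.0125 without knockout 4, -0.13 without knockout 2 and -0.05 without wildtype 1. Within the series it was -0.02 and -0.07.

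**Figure D3:**
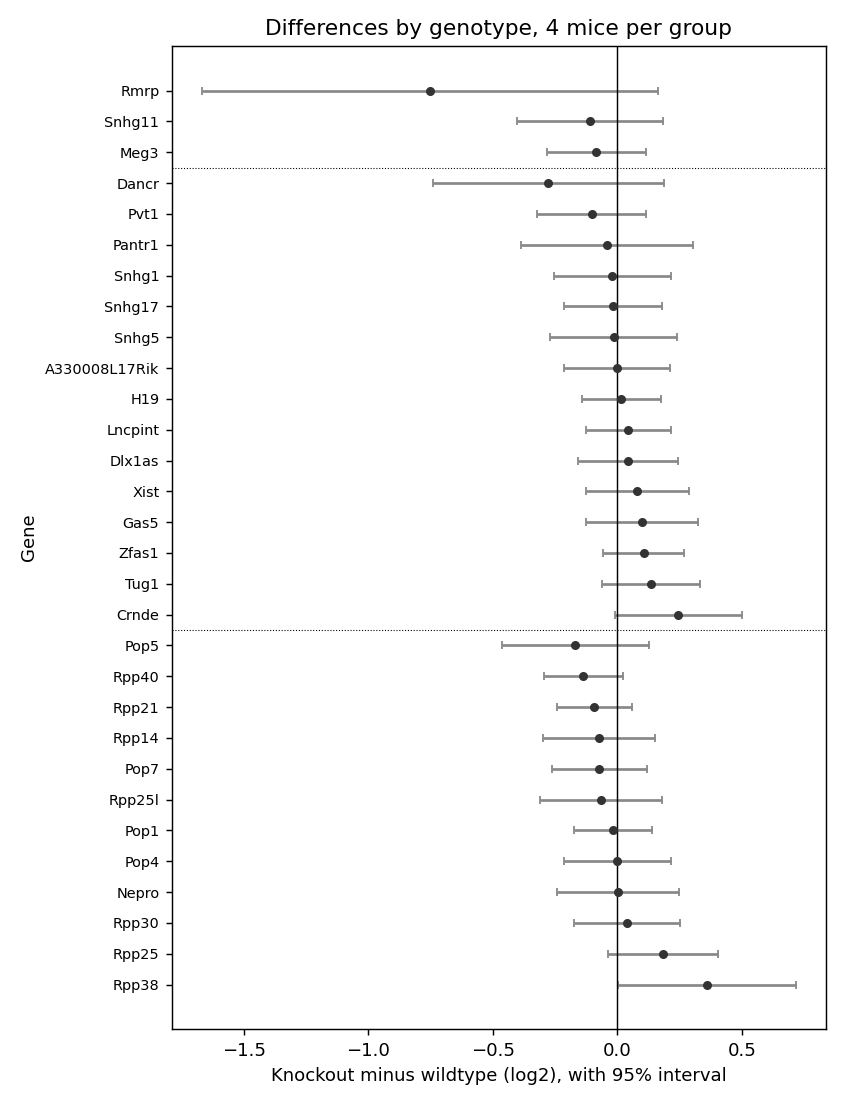
Difference between knockout and wildtype mice in log2 units with its 95% interval (limma, 4 mice per group) for the 3 RNAs (top), 15 other long noncoding RNAs (middle) and 12 proteins of RNase MRP and RNase P (bottom). The interval of Rmrp, from -1.67 to 0.16, is the widest shown, and of these genes Rpp38 has an interval that leaves out 0 with all 8 mice, its difference falling from 0.36 to 0.18 without wildtype 1.

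Levels of the members were compared across the 8 arrays in 3 pairs. The p-values came from exact two-sided permutation over all pairings, with Benjamini-Hochberg adjustment over the 3 pairs. Because the list was drawn up with the spread of Rmrp over these arrays known, they are descriptive and are not evidence of a relation. Snhg11 and Rmrp had a Pearson r of 0.91 (exact permutation p = 0.0239, adjusted 0.0716) and a Spearman rho of 0.53 (exact p = 0.184, adjusted 0.184). This relation rested on wildtype 1, since r was 0.45 without it and 0.65 without wildtype 1 and knockout 2 (exact p = 0.189), the 2 arrays farthest from the median of Snhg11. Meg3 and Snhg11 had an r of 0.60 (exact p = 0.132, adjusted 0.158) and a rho of 0.83 (exact p = 0.0154, adjusted 0.0461). Their r was 0.92 without wildtype 1 and knockout 4 (exact p = 0.0167, adjusted 0.05), 0.89 without knockout 4 alone (adjusted 0.00417) and 0.48 without wildtype 1 alone (adjusted 0.466). The rho of Meg3 and Snhg11 was 0.66 with repeated quantile normalization (adjusted exact p = 0.127). With each array centred on its median it was 0.78 (adjusted 0.0902). With 1 mouse left out, its adjusted p ran from 0.00833 (rho 0.96, without knockout 4) to 0.199 (rho 0.75, as without wildtype 1). Meg3 and Rmrp had an r of 0.50 (exact p = 0.158, adjusted 0.158) and a rho of 0.59 (exact p = 0.134, adjusted 0.184), or an r of 0.49 without wildtype 1 and knockout 4 (exact p = 0.356), 0.71 without knockout 4 alone (adjusted 0.0321) and 0.27 without wildtype 1 (adjusted 0.466).

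The probe sets nearest to each member in profile were taken as those with the smallest root mean square difference from it over the 8 arrays, after centring on each mean. For Rmrp, whose own root mean square deviation was 0.762, they were Mrpl20 (0.248), a subunit of the mitochondrial ribosome, and Tac2 (0.286), the neurokinin B precursor. Next came Syt9 (0.365), a calcium sensor of vesicle release, Chrna3 (0.371), a nicotinic acetylcholine receptor subunit, and Rpl3-ps1 (0.376), a ribosomal protein pseudogene. In each of the 5, wildtype 1 was the highest array. Mrpl20 read 9.83 there against 7.79 to 8.25 elsewhere, Tac2 8.66 against 6.64 to 7.02, and Chrna3 8.11 against 6.68 to 6.89.

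Tac2 and Chrna3 are known in the mouse from the medial habenula, a structure near the hippocampus. Both were picked for profiles near that of Rmrp, so their high level in wildtype 1 follows from that choice. The 11 markers of thalamus and habenula had a summed score (mean of centred log2 levels) of 0.34 in wildtype 1 and of -0.19 to 0.23 on the other 7 arrays, highest of these in knockout 3. Wildtype 1 was the highest array for 5 of the 11 (45.5%, against 22.3% of all probe sets). Slc17a6, the vesicular glutamate transporter of thalamus and habenula, read 9.17 in wildtype 1 and 7.34 to 8.86 elsewhere. Calb2, the calretinin gene, read 8.42 in wildtype 1 and 7.33 to 8.16 elsewhere. Zic1, also on the list, was highest in knockout 3 (9.41) and read 8.21 in wildtype 1. In knockout 3 the level of Rmrp was 9.87. Whether tissue of these structures was present in any sample, and its part in the Rmrp level of wildtype 1, was not tested.

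Snhg11 lay nearest to Slc16a1 (0.049), a lactate and ketone body transporter, Oxct1 (0.054), an enzyme of ketone body use, and the pseudogene Gm9803 (0.054), where its own deviation was 0.199. Meg3 lay nearest to Gas6 (0.028), a ligand of receptor tyrosine kinases, Apbb3 (0.029), which binds the amyloid precursor protein, and Pisd (0.032), the phosphatidylserine decarboxylase, with its own deviation at 0.116.

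**Figure D4:**
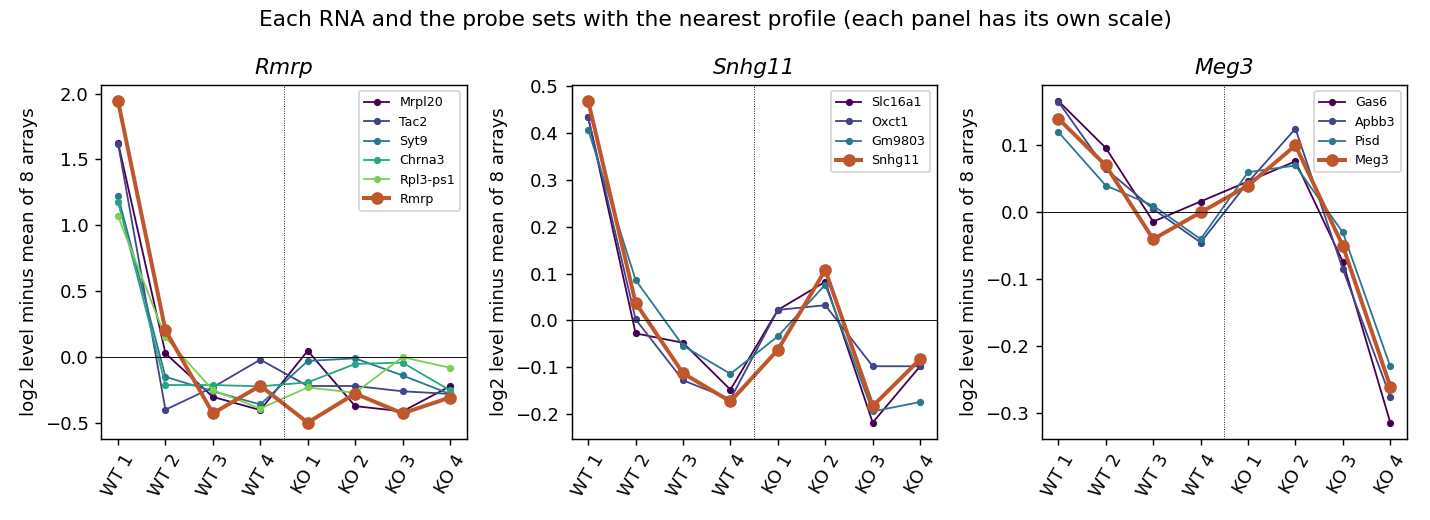
Log2 level minus the mean of the 8 arrays, by mouse, for each of the 3 RNAs (thick orange line) and the named probe sets with the smallest root mean square difference from it (thin lines). In the Rmrp panel all lines peak at wildtype 1 and differ from each other there and at other mice, while the Meg3 lines share a low point at knockout 4.

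Small nucleolar RNA probe sets, of which 13 were named, were also high in wildtype 1. That array was above all others for 8 of the 13 (61.5%, against 22.3% of all probe sets), with a median excess over the median of the others of 0.35. Snord33 read 8.61 in wildtype 1 and 7.15 to 7.85 elsewhere. Snord15b read 9.17 against 8.09 to 8.67, and Snord32a 8.14 against 7.36 to 7.97. Snord35a, Snord35b, Snord15a, Snord61 and Snora62 were the others, while Snord82 was highest in knockout 4 (6.93, against 5.87 to 6.17) and Snora65 in wildtype 2 (7.22). Most of the Snord members lie within ribosomal protein genes. Snord32a, Snord33, Snord34 and Snord35a share the host Rpl13a, and Snord15a and Snord15b share Rps3. The 13 are therefore not independent units, and their share has no test. Of the host probe sets, Rpl13a was 0.37 above the median of the other arrays in wildtype 1, and Rps3 was 0.64 above it. Rbmx, host of Snord61 (0.34), was at -0.33, and Rpsa, host of Snora62 (0.28), at -0.04, so not every host moved with its small RNA.

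Terc, the RNA of telomerase and the single other short structural RNA measured of 29 listed, went the other way and was lowest in wildtype 1 (6.70, against 6.83 to 7.23). By genotype, 10 of the 13 small nucleolar RNAs were lower and 2 higher in knockouts, with a median difference of -0.07. None passed the threshold over all genes and 1, Snord15a, had an unadjusted p under 0.05, against 3.16% of all probe sets. The median was 0.015 without wildtype 1. Snord15a differed by -0.255 ± 0.113 (SE; limma adjusted p = 0.997), or by -0.17 without wildtype 1 (unadjusted p = 0.121 in limma).

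The 12 proteins of RNase MRP and of RNase P, which shares most of them, gave a median difference of -0.04, with 7 lower, 4 higher and none past the threshold. Rpp38 alone had an unadjusted p under 0.05, against 3.16% of all probe sets. In wildtype 1 they moved both ways. Pop5 read 7.76 there against 7.05 to 7.29 elsewhere. Rpp38, a subunit that binds the RNA, read 9.26 against 9.94 to 10.37. Its difference of 0.36 ± 0.161 (SE; limma adjusted p = 0.997) had the smallest p of the list, followed by Rpp40 (-0.14) and Rpp25 (0.18). Without wildtype 1 the difference of Rpp38 was 0.18 (unadjusted p = 0.0806 in limma). Rpp40 (-0.17) and Rpp25 (0.23) then had an unadjusted p under 0.05, as did 648 of all 20985 probe sets. The summed score of the 12 was 0.0315 in wildtype 1 and -0.03 to 0.02 elsewhere. Beside Rmrp in gene order on chromosome 4, Ccdc107 read 8.37 in wildtype 1 and 7.77 to 8.04 elsewhere, and Sit1, on the other side, 6.55 against 6.67 to 7.01. One neighbour was thus highest and the other lowest on that array.

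Of 60 other long noncoding RNAs listed, 15 were measured, and wildtype 1 was the highest array for 2 of them (13.3%), Dancr and Pvt1. Dancr, an RNA that holds progenitor cells undifferentiated in human skin, was the clearest, at 9.62 in wildtype 1 and 8.46 to 8.63 in the other 7 mice. Tug1, by contrast, was lowest there (10.12, against 10.32 to 10.56). By genotype, 8 were higher and 7 lower in knockouts with a median difference of 0.015, and none passed the threshold or had an unadjusted p under 0.05. Crnde (0.25 ± 0.115, SE), Tug1 (0.14 ± 0.089) and Zfas1 (0.11 ± 0.073) had the smallest p, each with a limma adjusted p of 0.997. Crnde was highest in knockout 3 (6.74), where the remaining knockouts read 6.18 to 6.27 and the wildtype mice 6.08 to 6.14. It was the 1 of the 15 with groups that did not overlap, against 2.16% of all probe sets. Its mean level was low (6.23, where the lowest of the 15 was 6.06). Without wildtype 1 the difference of Tug1 was 0.065. Gas5, a host of small nucleolar RNAs like Snhg11, differed by 0.10.

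Over all 240 other probe sets that RefSeq classes as long noncoding, wildtype 1 was the highest array for 12 (5.0%, against 22.3% of all probe sets), with a median of -0.125 relative to the other arrays. Meg3 (0.14) and Snhg11 (0.55), which RefSeq puts in the same class, differed in sign from that median, as did Rmrp, which RefSeq classes apart. This was seen in the values and has no test. The 240 were not matched to the members for level, and wildtype 1 had the widest interquartile range of the arrays (2.42). By genotype these 240 had a median difference of 0.015, or -0.01 without wildtype 1, against -0.0025 over all named probe sets. None passed the threshold, and 1, A230006K03Rik (0.21), had an unadjusted p under 0.05, against 3.16% of all probe sets. Without wildtype 1 the balance turned from 137 higher and 99 lower to 103 higher and 137 lower. Of these, 1 higher and 7 lower had an unadjusted p under 0.05. Over all 19919 named probe sets, 9335 were then higher and 10513 lower, with 295 higher and 313 lower at that p.

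**Figure D5:**
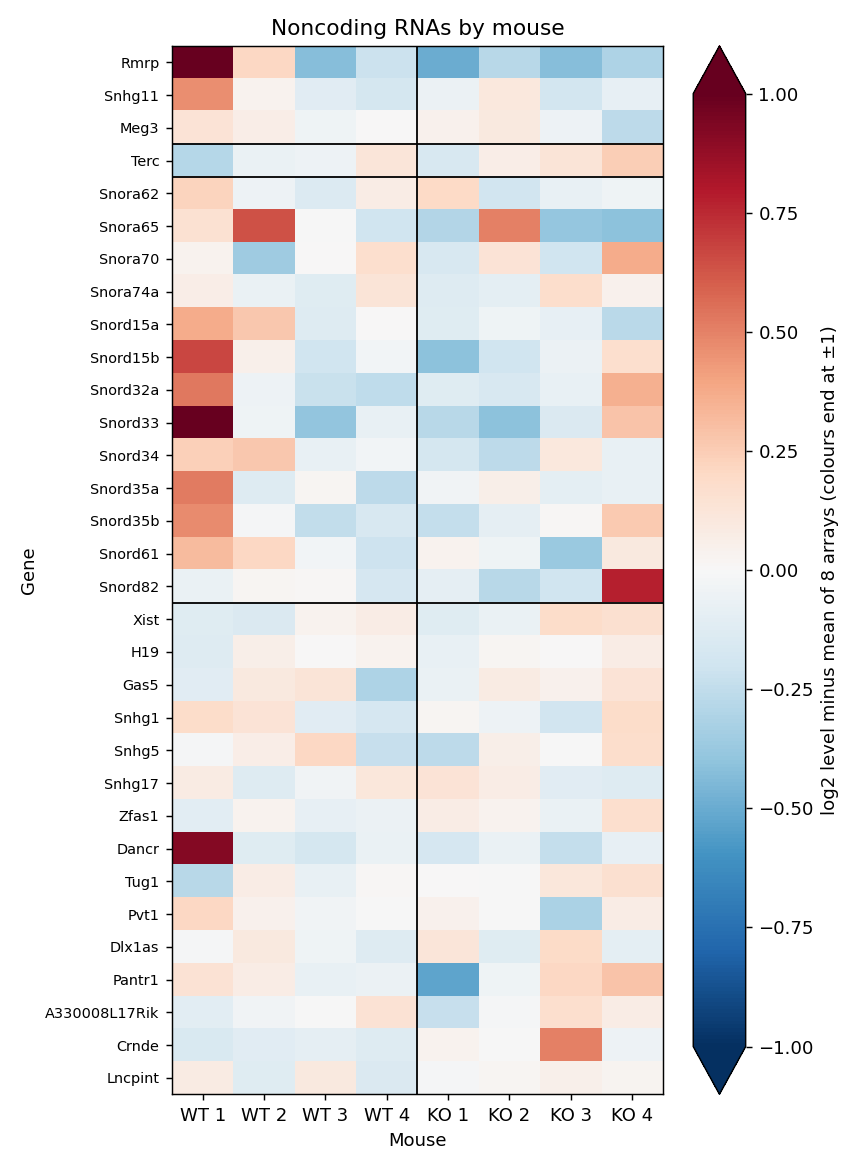
Log2 level minus the mean of the 8 arrays for the 3 RNAs (top), Terc, 13 small nucleolar RNAs and 15 other long noncoding RNAs, by mouse, with colours that end at 1 in either direction. The wildtype 1 column is high for Rmrp, Snord33, Snord15b and Dancr and low for Terc and Tug1.

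Genes around Meg3 were read from 14 protein genes of the Dlk1-Dio3 region and its flanks. Dlk1, which encodes an inhibitory Notch ligand and is expressed from the paternal copy, read 7.65 to 7.90 in wildtype mice and 7.59 to 8.21 in knockouts, a difference of 0.04 ± 0.127 (SE). Rtl1, a retrotransposon-derived gene that overlaps the region's noncoding RNAs on the opposite strand, read 7.03 to 8.13 and 7.36 to 8.06, a difference of 0.02 ± 0.231. Both signs turned without wildtype 1, to -0.01 for Dlk1 and -0.19 for Rtl1. Dio3, which inactivates thyroid hormone, differed by -0.01, or by -0.05 without wildtype 1. Of the 14, 5 were higher and 9 lower in knockouts, around a median of -0.03, with none past the threshold or at an unadjusted p under 0.05. Hsp90aa1 (0.29), Begain (-0.27) and Dync1h1 (-0.18) had the smallest p. Without wildtype 1 they differed by 0.38 (unadjusted p = 0.04 in limma), -0.08 and -0.08. Begain, a postsynaptic protein gene of the flank, read 8.96 in wildtype 1 and 7.97 to 8.28 elsewhere. Around Snhg11 on chromosome 2, Snhg17 (-0.02, or 0.0075 without wildtype 1) and Ralgapb (0.05) showed no difference beyond their standard errors of 0.088 and 0.069.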

How the data were processed

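Per the submitters' processing notes, the deposited log2 expression values came from R 2.9, limma and RMA, which corrects background, equalises arrays and summarises probes. The sources used here give no order, settings or build. Interquartile ranges of the deposited arrays still ran from 2.09 to 2.42. Per the labels' protocols, total RNA was extracted with Trizol and labelled by a whole-transcript method. Detection calls were not used, so low levels cannot be told from background, and the number of arrays limits precision.

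From these values, limma 3.58.1 in R 4.3.3 (lmFit, eBayes, two-sided) compared 4 knockout with 4 wildtype mice, with genotype as the single factor, over 20985 probe sets. The fit was tested on simulated data. Each mouse is a separate animal, and replicate numbers follow record order. Members, gene lists and tests were chosen with earlier results of these data known. Genes named were the members, Kcnh1, 3 genes with the smallest p per list, gene-order neighbours and nearest profiles; further small nucleolar RNAs and their hosts, Dancr, Pvt1, A230006K03Rik, Gas5, Pop5, Slc17a6, Zic1, Dio3, Hnrnph3, Nudt21 and Zdbf2 were named after their values were seen. RefSeq sequences and gene order are of GRCm38.p6. Alternatives were other moderation, weights, scalings, filters, blocks and mice left out.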

Additional observations from a re-analysis of the deposited data

Results flagged for a closer look

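Among 100 named genes, each examined in both genotypes, 20 had 1 mouse far from the other 3 of its group by Dixon's ratio of gap to range. Of the 20, 12 fell on wildtype 1. Chance gives about 1 in 20 groups where genes are picked without regard to their values, a rate that does not apply here, since Chrna3 and Syt9 (nearest to Rmrp) and Dancr, Pop5 and Slc17a6 were named with their wildtype 1 level in view. None of Rmrp, Snhg11 and Meg3 was among them.

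In wildtype 1, high values were read for Begain (8.96, next 8.28), C1qb (8.79, next 8.37), Ccdc107 (8.37, next 7.90), Chrna3 (8.11, next 6.72), Dancr (9.62, next 8.63), Pop5 (7.76, next 7.19), Rora (9.30, next 8.96), Slc17a6 (9.17, next 7.55) and Syt9 (8.74, next 7.37). Low values there were those of C1qc (8.57, next 8.94), Qk (11.35, next 11.70) and Rpp38 (9.26, next 9.94). C1qb and C1qc, subunits of the same complement protein of microglia, lay on opposite sides.

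Elsewhere, Kl was high in wildtype 2 (9.37, next 8.69). Knockout 3 was high for Zic1 (9.41, next 7.79), Crnde (6.74, next 6.27) and Amigo2 (8.68, next 8.52). Hsp90aa1 was high in knockout 1 (8.06, next 7.50) and Snora65 in knockout 2 (7.09, next 6.29). Low values were those of Ralgapb in knockout 2 (10.71, next 10.81) and Tssc4 in knockout 4 (6.87, next 7.13).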

How the results depend on the processing

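No member passed the threshold under any of 18 alternative fits, and Rmrp was lower in knockouts in all of them, from -1.02 (without wildtype 3) to -0.19 (without wildtype 1 and knockout 1); its adjusted p ran from 0.809 to 0.9998. The count of all probe sets past the threshold was 1, or 2 with array weights, repeated quantile normalization or the first principal component as a covariate. With array weights the differences of Meg3 (0.0023) and Snhg11 (0.0367) changed sign, and that of Snhg11 did so without wildtype 1 and knockout 1 (0.03). With 1 mouse left out at a time, differences ran from -0.13 to -0.01 (-0.0125) for Meg3, from -0.19 to 0.03 (0.0275) for Snhg11 and from -1.02 to -0.23 for Rmrp. The pooled SD then ran from 0.0778 to 0.137 for Meg3, lowest without knockout 4, from 0.116 to 0.242 for Snhg11 and from 0.218 to 0.838 for Rmrp, both lowest without wildtype 1; without wildtype 1 and knockout 1 it was 0.129 for Snhg11 and 0.234 for Rmrp. The mouse number series as a block gave differences of -0.04, -0.04 and -0.60 for Meg3, Snhg11 and Rmrp. Correlations ran from 0.48 to 0.89 for Meg3 and Snhg11, from 0.27 to 0.71 for Meg3 and Rmrp and from 0.45 to 0.97 for Snhg11 and Rmrp with 1 mouse left out, and without knockout 4 all 3 had an adjusted p under 0.05. Repeated quantile normalization gave 0.31 for Meg3 and Snhg11. With genotype means removed, the correlation of Snhg11 and Rmrp was 0.93 (adjusted permutation p = 0.00699). That p came from permuting residuals across both genotypes, so it is not exact. Wildtype 1, whose Rmrp level led to the choice of these RNAs, carries that correlation. With genotype means kept, r was 0.45 without wildtype 1 (adjusted exact permutation p = 0.466). The cause of these shifts was not tested beyond the mice left out. Each member had 1 probe set, so no alternative over several was run. Values of the gene lists and their named genes without wildtype 1 were added after seeing the data. No paired analysis was possible because the labels give no replicate numbers shared by the genotypes.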

Other observations

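Imprinted genes outside the Meg3 region, of which 41 were measured, had a median difference of 0.0125, with 21 higher and 20 lower in knockouts. None passed the threshold over all genes and 3 had an unadjusted p under 0.05, against 3.16% of all probe sets. Those with the smallest p were Ndn, the necdin gene of postmitotic neurons, at 0.23 ± 0.091 (SE), Usp29 at 0.23 ± 0.103 and Tssc4 at -0.22 ± 0.097, each with a limma adjusted p of 0.997. Without wildtype 1, Ndn (0.165) and Tssc4 (-0.15) no longer had an unadjusted p under 0.05. Usp29 (0.28) and Zdbf2 (0.305) then did, as did 648 of all 20985 probe sets.

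Proteins that work with noncoding RNAs in nuclear bodies were near 0 as groups. The 20 measured paraspeckle proteins had a median difference of 0.0125 and the 24 measured nuclear speckle and splicing proteins -0.0025, with none past the threshold. At an unadjusted p under 0.05 there was Qk alone, against 3.16% of all probe sets. Without wildtype 1 no speckle protein was at that p. Among the paraspeckle proteins Nudt21 (0.41) and Hnrnph3 (-0.18) then were, as were 648 of all 20985 probe sets. Dazap1 (-0.15), Ss18l1 (-0.13, or -0.05 without wildtype 1) and Rbm12 (0.10) had the smallest p among the former, and Qk, a regulator of myelin RNA splicing (0.24, or 0.15 without wildtype 1), Srsf2 (0.30) and Clk1 (0.18) among the latter.

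Scores of cell type markers in wildtype 1 were 0.08 for hippocampal neurons, -0.0041 for interneurons, 0.13 for astrocytes, 0.09 for oligodendrocytes, 0.07 for microglia, 0.17 for endothelium, -0.02 for choroid plexus and -0.15 for blood cells. Wildtype 1 had the highest score of all arrays for hippocampal neurons, astrocytes and microglia. Next were knockout 4 for hippocampal neurons (0.056) and knockout 1 for astrocytes (0.110) and microglia (0.066). Endothelium was higher in wildtype 3 (0.179), and oligodendrocytes in knockout 2 (0.103) and knockout 3 (0.148). Among the other 7 arrays the widest range was that of choroid plexus, from -0.24 to 0.68, highest in wildtype 2.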
